A study of Mus musculus with 6 samples.

Results

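The genes described here are 6 SMADs (Smad1, Smad2, Smad3, Smad4, Smad5 and Smad7) and 4 receptors (Bmpr1a, Bmpr2, Tgfbr1 and Tgfbr2) of the TGF-beta and BMP pathways. They were taken by symbol from the authors' deposited table, and all 10 were found among its 23793 rows. They were read in i660BM, a line of mouse pro-B cells (strain C57BL/6) that carries a doxycycline-inducible PU.1 and was grown with interleukin 7 and fetal bovine serum. PU.1 is an ETS family transcription factor, encoded by Spi1, that acts in myeloid and B lineage cells. One group of 3 libraries came from cells in which PU.1 was induced (doxycycline at 70 ng/ml, 48 h), and the other of 3 libraries from non-induced cells of the same line, so every value comes from 1 cell line. The labels list no library given doxycycline without the inducible factor, so the drug and PU.1 cannot be told apart.

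TGF-beta and BMP ligands are secreted dimers that bring together a pair of type II and a pair of type I serine/threonine kinase receptors. The type II receptor phosphorylates the type I receptor, which phosphorylates receptor-regulated SMADs. In the TGF-beta and activin branch these are Smad2 and Smad3, and in the BMP branch Smad1, Smad5 and Smad9. They join Smad4, the shared partner, and enter the nucleus, while Smad6 and Smad7 inhibit the pathway and are themselves described among its target genes. In the bone marrow TGF-beta is known as a growth inhibitor of B cell precursors.

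The values are FPKM (fragments per kilobase of transcript, scaled to sequencing depth), with 1 value for each gene and group. Single libraries have no value of their own, so the spread within a group cannot be given, and the order of 2 genes of similar level was not tested. A gene is called where the authors tested it and their q-value is under 0.05, and it is then said to rise or fall. From the spacing of the lowest FPKM values a library held about 41200000 fragments in induced cells and about 39000000 in non-induced cells. Spi1 stood at 246 FPKM in induced cells, against 36.0 FPKM in non-induced cells. Of 12 pro-B markers 11 were tested, with a summed level of 6005 FPKM in induced and 3769 FPKM in non-induced cells, and Kit was listed at 0 in both groups. All 8 stromal markers were under 0.1 FPKM in both groups. The 8 T and NK markers summed to 0.250 FPKM in induced and 0.313 FPKM in non-induced cells, and the 4 erythroid markers to 0.316 FPKM in induced and 0.377 FPKM in non-induced cells. The 8 myeloid markers summed to 16.5 FPKM in induced cells and 0.378 FPKM in non-induced cells. Lyz2 made up 15.2 FPKM of this in induced and 0.361 FPKM in non-induced cells. Cd14 stood at 0.995 FPKM in induced cells and was listed at 0 in non-induced cells. Both Lyz2 and Cd14 were called higher. Csf1r, Itgam and Emr1, not tested, stood at 0.192, 0.151 and 0.0512 FPKM in induced cells. In non-induced cells they stood at 0, 0.0133 and 0 FPKM. Mpo, also untested, was at 0 in induced and 0.00358 FPKM in non-induced cells. Elane and Cebpa were listed at 0 in both groups. The part of these marker shifts in the results below was not tested. In bulk RNA, fewer cells of a type and less RNA per cell cannot be told apart.

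Of the 10 genes, 8 were tested, 3 rose (Smad7, Tgfbr2 and Smad5) and 1 fell (Bmpr1a). In the authors' deposited table, 19% of all 10657 tested rows were called higher and 16.1% lower. The other 4 tested genes, Smad2, Smad4, Tgfbr1 and Bmpr2, were not called. The median log2 change of the 8 was 0.11, against -0.01 for all tested rows. The 2 untested genes were Smad1 and Smad3, both near or at 0. The 8 tested genes lay between 5.27 and 28.2 FPKM in induced cells and between 5.74 and 24.8 FPKM in non-induced cells. In a range of 5 to 30 FPKM, chosen after these levels were seen, 34.5% of 4745 tested rows were called in either direction, 19% of them higher and 15.6% lower as shares of all these rows. With normal p-values computed from the authors' test statistic 2 of the genes were called higher (Smad7 and Tgfbr2) and 0 lower, against 9% and 6.17% of tested rows. At a size of at least 1.5-fold Smad7 alone was called, against 10.2% of tested rows in either direction.

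**Figure D1:**
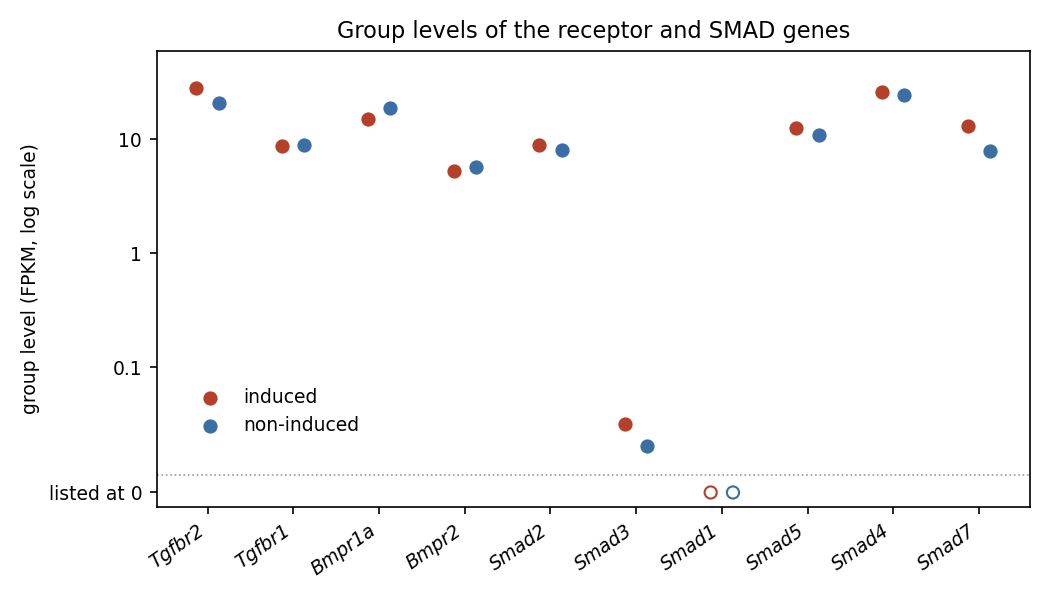
Group levels of the 10 receptor and SMAD genes in FPKM on a log scale, 1 point per group from the authors' deposited table, with induced cells at the left of each pair. The 8 tested genes lie between 5.27 and 28.2 FPKM, whereas Smad3 lies at 0.0321 FPKM in induced and 0.0204 FPKM in non-induced cells and Smad1 is listed at 0 in both groups (open circles under the dotted line, which are off the scale).

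Among the receptors, the TGF-beta type II receptor rose and the BMP type I receptor fell, while their partners were not called; whether partners differed in their change was not tested. Tgfbr2 encodes the type II receptor that binds TGF-beta itself. Its level was 28.2 FPKM in induced cells and 20.9 FPKM in non-induced cells. In the authors' deposited table this was a rise of 35.1% (log2 change 0.43, implied SE 0.15, q = 0.000287). The implied SE, a standard error, is the log2 change divided by the deposited test statistic, a relation that the table does not state. Tgfbr2 was the most abundant of the 10 genes in induced cells and the second, after Smad4, in non-induced cells. Tgfbr1, the type I receptor that Tgfbr2 phosphorylates, stood at 8.77 FPKM in induced cells and 8.99 FPKM in non-induced cells. It was not called (log2 change -0.04, implied SE 0.15, q = 0.801 in the authors' deposited table), and the 95% normal interval from its implied SE ran from -0.32 to 0.25. The level of Tgfbr2 was thus 3.22 times that of Tgfbr1 in induced cells and 2.33 times in non-induced cells, and this difference between the ratios was not tested.

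Bmpr1a encodes a type I receptor for BMPs. It stood at 15.1 FPKM in induced cells and 19.0 FPKM in non-induced cells, behind Tgfbr2 and Smad4 in both groups. It fell by 20.8% in the authors' deposited table (log2 change -0.34, implied SE 0.15, q = 0.000287). With a normal p-value from the authors' statistic this call was lost (adjusted p = 0.112). In the annotation an antisense gene, Gm17110, overlaps Bmpr1a on the other strand; it has no row in the table, and the strand setting of the counting is not given in the sources used here. Bmpr2, the type II receptor for BMPs, was the least abundant tested gene, at 5.27 FPKM in induced cells and 5.74 FPKM in non-induced cells. The authors' deposited table gave it a log2 change of -0.12 (implied SE 0.15, q = 0.271), with an interval from -0.41 to 0.17. Bmpr1a exceeded Bmpr2 2.86 times in induced cells and 3.31 times in non-induced cells.

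The start regions of the TGF-beta receptor pair are shown because one member of the pair rose and its partner was not called, in cells where an ETS factor was induced. Each is the 250 bases upstream of a RefSeq transcript start (GRCm38.p6), printed 5′ to 3′ on the strand of the gene. Capitals mark the ETS core GGAA on either strand, so that TTCC would also be capitalised.
Tgfbr2, minus strand, chr9:116175364-116175613: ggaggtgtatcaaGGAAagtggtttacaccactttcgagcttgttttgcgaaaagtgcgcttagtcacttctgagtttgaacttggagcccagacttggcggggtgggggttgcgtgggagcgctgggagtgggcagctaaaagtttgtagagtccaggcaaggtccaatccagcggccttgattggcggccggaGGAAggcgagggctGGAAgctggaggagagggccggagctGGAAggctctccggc
Tgfbr1, plus strand, chr4:47352972-47353221: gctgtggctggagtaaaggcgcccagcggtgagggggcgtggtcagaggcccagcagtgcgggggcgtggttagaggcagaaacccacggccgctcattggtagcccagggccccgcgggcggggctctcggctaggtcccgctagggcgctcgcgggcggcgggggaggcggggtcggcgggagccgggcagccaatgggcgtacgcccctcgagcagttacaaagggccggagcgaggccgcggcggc
The Tgfbr2 window held 4 GGAA cores and this Tgfbr1 window 0, while a second RefSeq start of Tgfbr1 had 5. The core is common: 93.4% of 32851 RefSeq windows, each also the 250 bases upstream of a start, held at least 1, with a median of 3 per window, and 33.4% held at least 4. The pair was chosen after its changes were seen, and whether the cores bear on the change of either gene was not tested.

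RefSeq windows were searched for 7 of the 10 genes, with 10 starts in all. The search left out chromosome 18, and with it Smad2, Smad4 and Smad7. It therefore says nothing of Smad7, the gene with the largest rise. Bmpr1a, which fell, had 3 GGAA cores, and Bmpr2, which was not called, had 6, a number reached by 8.69% of all windows. The 3 windows of Smad5 held 1, 1 and 3 cores. The longer ETS sequence AGGAAGT, which contains the core and was searched on both strands, was in 0 of the 10 windows and in 7.69% of all windows. The SMAD element CAGAC was in the Tgfbr2 window and in 1 window each of Tgfbr1 and Smad5, against 42.2% of all windows. The GC-rich sequence GGCGCC, searched for its SMAD binding, was in 1 window each of Bmpr1a, Bmpr2, Tgfbr1 and Smad5, against 9.59% of all windows. These counts describe letters in short windows and do not show binding.

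Each receptor branch had 1 receptor-regulated SMAD at several FPKM, with its close relatives near or at 0. In the BMP branch this was Smad5, at 12.7 FPKM in induced cells and 11.0 FPKM in non-induced cells. Smad1 and Smad9, the related BMP SMADs, were listed at 0 in both groups and were not tested. In the TGF-beta branch it was Smad2, at 8.97 FPKM in induced cells and 8.11 FPKM in non-induced cells. Smad3, the other TGF-beta SMAD, stood at 0.0321 FPKM in induced cells and 0.0204 FPKM in non-induced cells and was not tested. With its longest annotated coding transcript of 5090 bases, these levels correspond to about 20 fragments over the 3 induced libraries and 12 over the 3 non-induced ones, too few to compare. With its shortest, of 429 bases, they correspond to about 2 and 1. A listed 0 can be a failed estimate and does not show that a gene was absent.

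Smad5 rose by 15.5% in the authors' deposited table (log2 change 0.21, implied SE 0.15, q = 0.0394). This was the smallest called change among the 10 genes, and with a normal p-value from the authors' statistic it was lost (adjusted p = 0.437). The 95% normal interval of Smad5 from its implied SE ran from -0.08 to 0.50 and included 0. Those of the other called genes left out 0: 0.47 to 0.97 for Smad7, 0.15 to 0.72 for Tgfbr2 and -0.62 to -0.05 for Bmpr1a. The annotation places 3 small RNA genes inside Smad5 on its own strand, and none of the 3 has a row in the table. For Smad2 the log2 change was 0.15 (implied SE 0.15, q = 0.171 in the authors' deposited table), with an interval from -0.15 to 0.44. Smad5 exceeded Smad2 1.42 times in induced cells and 1.36 times in non-induced cells.

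Smad4, the partner of both branches, was among the most abundant of the 10 genes and was not called. It stood at 26.1 FPKM in induced cells and 24.8 FPKM in non-induced cells. In the authors' deposited table its log2 change was 0.08 (implied SE 0.14, q = 0.537), with an interval from -0.19 to 0.34.

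The inhibitory SMADs moved in opposite directions. Smad7, which binds activated type I receptors and recruits ubiquitin ligases to them, stood at 13.0 FPKM in induced cells and 7.90 FPKM in non-induced cells. It rose by 64.7% in the authors' deposited table (log2 change 0.72, implied SE 0.13, q = 0.000287). This was the largest change among the 8 tested genes, and 557 of the 10657 tested rows had a larger log2 change. Smad7 moved to the fourth place of the 10 genes by level in induced cells, against the seventh in non-induced cells. Smad6, which is known mainly as an inhibitor of the BMP branch and is not among the 10 genes, fell, at 0.0719 FPKM in induced cells and 0.297 FPKM in non-induced cells. The authors' deposited table gave a log2 change of -2.05 (implied SE 0.51, q = 0.000287). The longest coding transcript of Smad6, 2971 bases, gives about 26 fragments in the induced group and 103 in the non-induced group. The shortest, 273 bases, gives about 2 and 9. The size of the Smad6 change is thus less certain than that of Smad7. With 0.1 FPKM added to both values the log2 change of Smad6 was -1.21, and with 1 FPKM added it was -0.28.

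**Figure D2:**
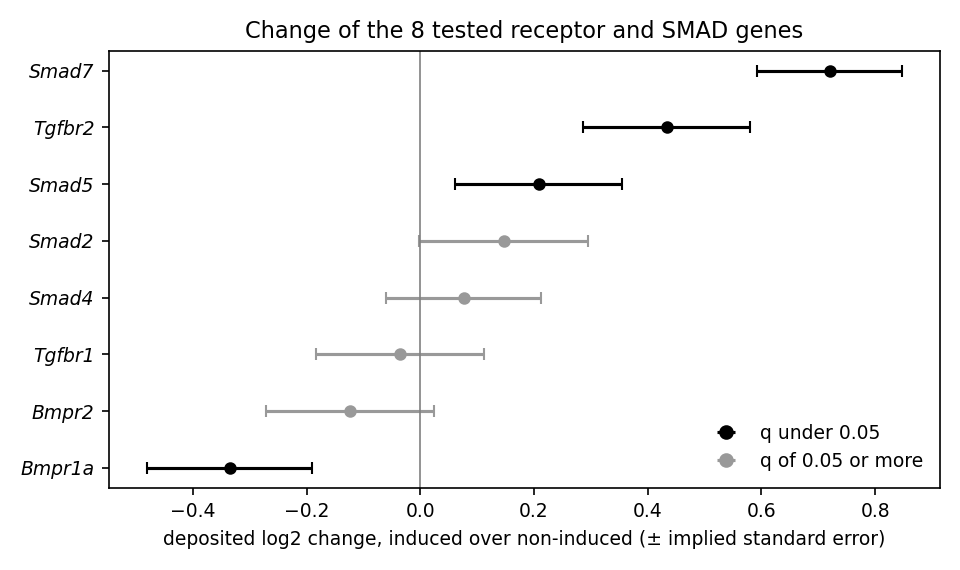
Deposited log2 change, induced over non-induced, of the 8 tested receptor and SMAD genes, with bars of 1 implied SE, in black where q was under 0.05. Smad7 (0.72), Tgfbr2 (0.43) and Smad5 (0.21) are called higher and Bmpr1a (-0.34) is called lower; Smad1 and Smad3 were not tested and are not drawn.

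By position, Smad4, Smad7 and Smad2 lie on chromosome 18 (mm10), and all 3 are protein-coding. Smad4 is on the minus strand at 73639009 to 73703780, Smad7 on the plus strand at 75367529 to 75395935, and Smad2 on the plus strand at 76241580 to 76310963. Of these 3 genes only Smad7 was called. Smad3 and Smad6 both lie on the minus strand of chromosome 9, at 63646767 to 63757994 and 63953076 to 64022059. Tgfbr2 is on the same chromosome and strand at 116084293 to 116175360. The other 5 genes lie on 5 chromosomes. Bmpr2 is on chromosome 1 at 59763400 to 59879014 (plus strand), Tgfbr1 on chromosome 4 at 47353222 to 47414931 (plus strand) and Smad1 on chromosome 8 at 79338395 to 79399518 (minus strand). Smad5 is on chromosome 13 at 56703010 to 56742377 (plus strand) and Bmpr1a on chromosome 14 at 34410734 to 34503341 (minus strand). None of the 10 shares its locus with another row of the table.

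The tested genes closest in level, over the 2 group values, were looked up for the called member with the largest rise, Smad7, and the one with the fall, Bmpr1a. Nearest to Smad7 were Camk1d (13.3 FPKM in induced and 8.01 FPKM in non-induced cells), Tgtp2 and 1700021K19Rik, at distances of 0.042, 0.048 and 0.050 on the log2 scale of FPKM + 0.1. Nearest to Bmpr1a were Rabepk (15.2 FPKM in induced and 19.1 FPKM in non-induced cells), Tada2a and Tma16, at distances of 0.011, 0.031 and 0.034. With 2 values per gene this likeness compares group levels and nothing else.

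Outside the 10 genes, 151 further genes of the pathway were listed by role, of which 73 were tested, 17 were called higher and 20 lower. Their median log2 change was 0.02. The 78 untested genes include 50 listed at 0 in both groups. The lists are small and were read by their counts and medians beside the background shares given above.

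Among the ligands, the order of the TGF-beta genes differed between the groups. Of 31 ligand genes 4 were tested, and 26 were under 0.1 FPKM in both groups, all 10 listed Bmp genes from Bmp2 to Bmp15 among them. Tgfb1, the main TGF-beta of the immune system, rose to 157 FPKM in induced cells, against 113 FPKM in non-induced cells (log2 change 0.48, implied SE 0.12, q = 0.000287 in the authors' deposited table). Tgfb3, a related ligand for the same receptors, fell to 71.2 FPKM in induced cells, against 172 FPKM in non-induced cells (log2 change -1.28, implied SE 0.14, q = 0.000287 in the authors' deposited table). Tgfb1 was therefore 2.21 times the level of Tgfb3 in induced cells and 0.653 times in non-induced cells. Gdf11, a ligand of the activin type, fell to 6.51 FPKM in induced cells, against 11.5 FPKM in non-induced cells (log2 change -0.82). The fourth tested ligand, Amh, was not called.

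Of 13 ligand processing and activation genes 5 were tested, 0 rose and 3 fell. Beside this, 19% of all tested rows were called higher and 16.1% lower. The smallest of the 3 falls was that of Ltbp4 (log2 change -0.23, q = 0.0403 in the authors' deposited table). Its call was lost with a normal p-value from the authors' statistic (adjusted p = 0.358), while Lrrc32 and Furin kept theirs. Lrrc32 encodes GARP, which holds latent TGF-beta on the cell surface. It stood at 0.222 FPKM in induced cells and 0.813 FPKM in non-induced cells, a log2 change of -1.87 (implied SE 0.28, q = 0.000287 in the authors' deposited table). With 0.1 FPKM added to both values the log2 change of Lrrc32 was -1.50, and with 1 FPKM added it was -0.57. Of 16 extracellular antagonists 3 were tested and 1 was called, the BMP-binding protein gene Twsg1, which fell to 36.1 FPKM in induced cells, against 48.9 FPKM in non-induced cells (log2 change -0.44). Of 15 other receptors and co-receptors 4 were tested, 1 higher and 1 lower. The antagonist and receptor counts also stand beside 19% of all tested rows called higher and 16.1% lower.

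Acvr1, a type I receptor that serves BMPs alongside Bmpr1a, also fell. It stood at 5.01 FPKM in induced cells and 6.68 FPKM in non-induced cells (log2 change -0.41, implied SE 0.17, q = 0.000287 in the authors' deposited table), and with a normal p-value the adjusted p was 0.0849. Acvr2a, a type II receptor for activins and some BMPs, rose to 3.24 FPKM in induced cells, against 1.48 FPKM in non-induced cells (log2 change 1.13, implied SE 0.42, q = 0.000287 in the authors' deposited table). Its locus is shared with another row, so fragments may be split between the 2. Acvr2b, the related type II receptor, was not called at 2.15 FPKM in induced and 1.95 FPKM in non-induced cells. The remaining type I and II receptors, Acvr1b, Acvr1c, Acvrl1, Bmpr1b and Amhr2, were under 0.1 FPKM in both groups and were not tested.

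Of 30 tested regulators of SMADs and receptors, 8 rose and 3 fell, with a median log2 change of 0.06. Called in either direction were thus 11 of 30, beside 35.1% of all tested rows. Only Nedd4l (adjusted p = 0.00326) and Pmepa1, which fell (adjusted p = 0.0212), kept their calls with normal p-values from the authors' statistic. Such p-values called 9% of tested rows higher and 6.17% lower. The largest called rises were those of Nedd4l and Tgif2. Nedd4l, a ubiquitin ligase that acts on phosphorylated Smad2 and Smad3 and on type I receptors, rose to 9.80 FPKM in induced cells, against 5.76 FPKM in non-induced cells (log2 change 0.77). It shares its locus with 7 other rows. Tgif2, a SMAD corepressor, stood at 0.430 FPKM in induced cells and 0.250 FPKM in non-induced cells (q = 0.0497 in the authors' deposited table), and its call was lost with a normal p-value (adjusted p = 0.448). In the SMAD-independent branch around the kinase TAK1, 5 of 14 tested genes rose and 1 fell, with a median log2 change of 0.11. Beside this, 19% of all tested rows were called higher and 16.1% lower. The largest change in this branch was that of Xiap, which links BMP receptors to TAK1. Xiap stood at 29.4 FPKM in induced cells and 22.5 FPKM in non-induced cells (log2 change 0.39). With normal p-values from the authors' statistic only Xiap kept its call in this branch (adjusted p = 0.0417).

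Among genes described as SMAD targets, Id1, Id2 and Smad6 had the largest falls. Without Smad7, 16 of 31 such genes were tested, 2 rose and 10 fell, with a median log2 change of -0.41, beside 19% of all tested rows called higher and 16.1% lower. The list does not separate induced from repressed targets, so its count and median do not measure the activity of the pathway. Smad6 is counted here and again as a SMAD above. The fall of Id1 and Id2 in these data was known when the list was made, so the count is no independent evidence of its direction. Id1, a classic BMP target that inhibits basic helix-loop-helix factors, stood at 1.18 FPKM in induced cells and 10.7 FPKM in non-induced cells (log2 change -3.18 in the authors' deposited table). With 1 FPKM added to both values, Id1 had a log2 change of -2.43. Its relative Id2 had a log2 change of -2.09, and Id3, named after its value was seen, fell to 148 FPKM in induced cells, against 205 FPKM in non-induced cells (log2 change -0.47). The cell cycle inhibitor genes moved apart: Cdkn2b fell to 3.28 FPKM in induced cells, against 6.02 FPKM in non-induced cells (log2 change -0.87), and Cdkn1a rose to 6.72 FPKM in induced cells, against 4.03 FPKM in non-induced cells (log2 change 0.74). Myc, which TGF-beta is known to repress in epithelial cells, fell to 125 FPKM in induced cells, against 212 FPKM in non-induced cells (log2 change -0.76). Tsc22d1 stood at 0.132 FPKM in induced cells and 0.287 FPKM in non-induced cells (log2 change -1.12, q = 0.0150 in the authors' deposited table); its adjusted p was 0.263 with a normal p-value.

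**Figure D3:**
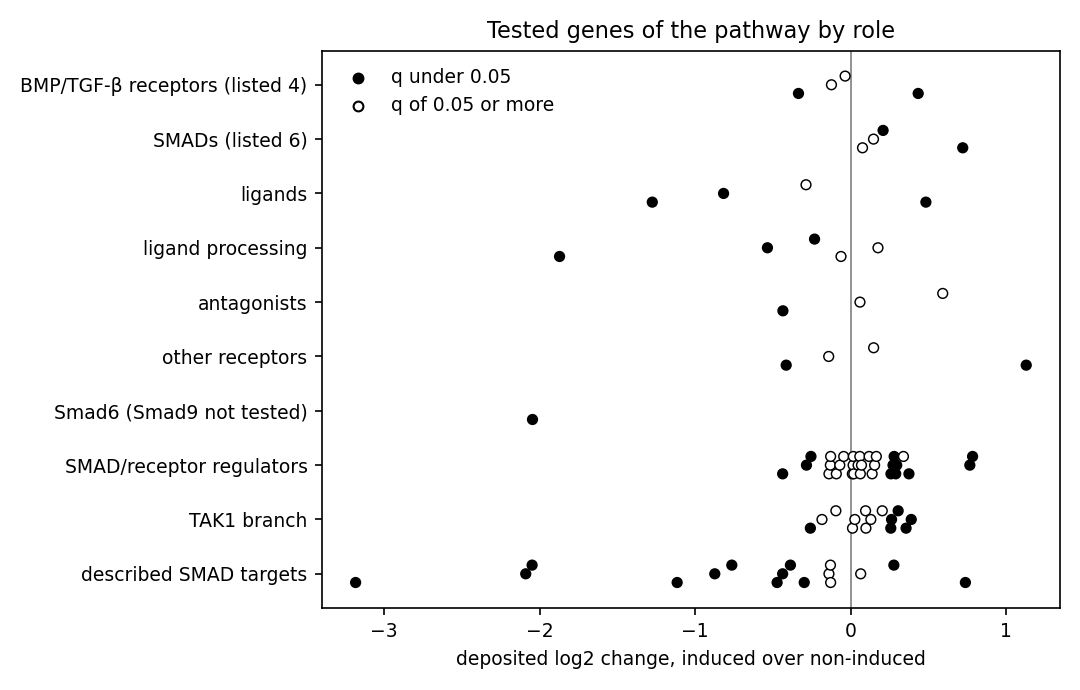
Deposited log2 change, induced over non-induced, of every tested pathway gene by role, 1 point per gene, filled where q was under 0.05; genes that stand in 2 lists are drawn in both, except Smad7, which is drawn among the SMADs. The described targets reach from -3.18 (Id1) to 0.74 (Cdkn1a), whereas the receptors and SMADs of the 10 genes lie between -0.34 and 0.72.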

How the data were processed

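RNA from 6 libraries, 3 induced and 3 non-induced, was extracted with a column kit and made into stranded mRNA libraries, per the labels' protocols. The submitters' processing notes name Trim Galore 0.2.8.1, TopHat2 2.0.9, Cufflinks, Cuffdiff 2.1.1 and the build mm10, with annotation and strand setting not given in the sources used here. Per the file headers, the authors deposited 1 Cuffdiff table with 1 FPKM value per gene and group, a log2 fold change (induced over non-induced, with text marks in 524 cells), a test statistic (a signed score), and p-values with their q-values.

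These values were used as deposited. The authors tested 10657 rows, and the deposited q-values matched a Benjamini-Hochberg adjustment over them within 5.15e-07. Of these rows 1855 have the lowest p-value, 5e-05, which gives a q-value of 0.000287. No test per gene was made here, since the table holds group values only. Whether the libraries are separate cultures is not stated, so p-values may measure technical spread. Normal p-values from the statistic were an alternative for the 10628 rows with a numeric statistic; they called 9% of these rows higher and 6.17% lower.

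The genes and lists were chosen with earlier results of these data known. Genes outside the 10 were named where called with an absolute log2 change of at least 0.58 (1.5-fold), or as the largest called change of a list with none; Tgfb1, Smad6, Smad9 and the type I and II receptors were named in any case. Depth was estimated from FPKM times length, over genes whose 1 annotated transcript reaches 1 kb. At the chosen step 66.2% of low values in induced and 70.9% in non-induced cells lay within 0.15 of a whole fragment. The step was picked within a preset range as the one with the highest such share. The share is thus no independent check, and the depth is approximate. Positions are those of GENCODE M21 (mm10), and promoter sequences those of RefSeq (GRCm38.p6). Python 3.11.15, pandas 2.3.3, NumPy 2.4.6, SciPy 1.17.1 and Matplotlib 3.10.9 were used.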

Additional observations from a re-analysis of the deposited data

How the results depend on the processing

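Over the 10 receptor and SMAD genes, the counts of 3 higher and 1 lower were 2 and 0 with normal p-values from the deposited statistic, which kept Smad7 and Tgfbr2. At a size of at least 1.5-fold they were 1 and 0, with Smad7 alone. With q under 0.01 they were 2 and 1, and they did not change over rows of at least 1 FPKM or over rows with a locus of their own. The last 2 settings keep all 8 tested genes, so they could change a call only through the adjusted p-values. Centring on the median of tested rows, which lay at -0.01 on the log2 scale, keeps the q-values by construction and turned the direction of 0 called genes. Over the 73 other tested pathway genes, the counts of 17 higher and 20 lower were 5 and 12 with normal p-values and 4 and 9 at 1.5-fold. Among all tested rows, 19% were called higher and 16.1% lower with the deposited q-values. With normal p-values the shares were 9% and 6.17%, and at 1.5-fold 10.2% were called in either direction. The median log2 change of the 8 tested genes stayed between 0.10 and 0.12 under 5 alternatives of pseudocount, scaling and filter. The filter kept all 8, and each scaling moved every gene by the same small amount, so these could hardly change it. The 16 tested SMAD targets without Smad7, at 2 higher and 10 lower, were 1 and 7 with normal p-values and 1 and 6 at 1.5-fold. They stand beside the same shares of all tested rows. The cause of the gap between the deposited p-values and the normal ones was not tested. No paired analysis was possible because the table holds 1 value per group, and for the same reason no library could be left out. Low levels limit Smad3, Smad6, Lrrc32, Tgif2 and Tsc22d1: with 1 FPKM added to both values the log2 changes of the tested ones were -0.28, -0.57, 0.19 and -0.18, in that order. With this addition 7 tested pathway genes moved by at least their implied SE. Among them were Id1 (to -2.43), Cdkn2b (to -0.71) and Furin (to -0.34).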
